A study of Mus musculus with 12 samples.

Results

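Uninjured kidneys of Ybx3 knockout mice, which carry a genetic deletion of the gene, were compared with uninjured kidneys of wild-type mice, 3 libraries a genotype. These 6 of the 12 libraries of the study were chosen by their labels for genotype and for the control treatment. The other 6 came from knockout and wild-type kidneys after IRI, an injury by ischemia (loss of blood supply) and reperfusion (its return). All mice were adults according to the study design. Strain, sex, exact age, the way the Ybx3 allele was made and the exons it lacks are not given in the labels. Each library was made from total kidney RNA after removal of ribosomal RNA. The labels do not say whether the 3 libraries of a group came from 3 animals, so p-values measure the spread between these libraries.

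Ybx3 encodes DNA-binding protein A (DbpA), a member of the Y-box family. These proteins carry a cold shock domain, bind DNA and RNA, and take part in transcription, mRNA stability and translation. In epithelial cells DbpA also sits at tight junctions with the scaffold protein ZO-1 and can move to the nucleus, where it is known to act on genes of cell proliferation. Y-box proteins were named for binding the inverted CCAAT box, a short promoter motif.

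The 3 wild-type libraries held 50353621, 58787224 and 49715880 counts, and the 3 knockout libraries 61563411, 67948710 and 67326646. Kidney markers were abundant in all 6. The 30 proximal tubule markers summed to between 21822.5 and 31515.3 CPM (counts per 1e6 counts, scaled by TMM), and the 12 podocyte markers to between 1290.1 and 1883.0 CPM. The 4 Y-linked genes Ddx3y, Eif2s3y, Kdm5d and Uty split the libraries: their summed level was 1.14, 1.79 and 1.54 CPM in wild type, 1.18 CPM in knockout 1, 248.5 CPM in knockout 2 and 261.2 CPM in knockout 3. Knockouts 2 and 3 therefore differed from the other 4 libraries in Y-linked RNA as well as, against the wild types, in genotype. After IRI the summed level was 206.6, 33.2 and 307.1 CPM in wild type and 45.2, 227.4 and 1.26 CPM in knockout. The values after IRI and the interactions given below thus also compare libraries that differ in Y-linked RNA. The main fit does not separate its part from that of genotype. In a principal component analysis of the 6 libraries, the axis with 48.2% of the variance placed knockouts 2 and 3 at 43.8 and 48.1 and the other 4 between -29.5 and -17.1.

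Ybx3 itself, on chromosome 6 at 131364855 to 131388476 on the minus strand (mm10), is described before all other genes because it checks the labels. Its level was 36.9, 33.0 and 30.2 CPM in wild type and 12.9, 9.28 and 9.48 CPM in knockout. The groups did not overlap, and each knockout library kept Ybx3 reads. The mean was 33.4 ± 3.35 CPM (SD, n = 3) in wild type and 10.6 ± 2.03 CPM (SD, n = 3) in knockout. The log2 fold change of knockout over wild type was -1.66 (SE 0.23), with an adjusted p of 0.0784 in the quasi-likelihood test of edgeR, adjusted by Benjamini-Hochberg over 19218 genes. This missed the threshold of 0.05 in the fit of all 12 libraries. It passed in DESeq2 (adjusted p = 3.02e-07), in an edgeR fit of the 6 uninjured libraries alone (adjusted p = 0.0281), and in the 12-library fit without knockout 1 (adjusted p = 0.0141) or without wild-type IRI replicate 2 or 3. After IRI the same genotype contrast was -2.33 in log2 (adjusted p = 0.00719, edgeR), from 81.1, 53.9 and 104.5 CPM in wild type to 13.6, 15.6 and 18.6 CPM in knockout.

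Other cold shock domain genes gave no call in the main edgeR fit. Ybx1, which encodes the broadly expressed Y-box protein YB-1, stood at 220.8, 177.7 and 176.7 CPM in wild type and at 170.3, 320.4 and 283.9 CPM in knockout. Knockout 1 was thus below all 3 wild types and knockouts 2 and 3 above them, and the fitted log2 fold change was 0.43 (SE 0.22, adjusted p = 0.964, edgeR). Against knockout 1 alone it was -0.14. Ybx2, the germ cell Y-box gene, gave -0.26 (SE 0.37) in log2, while Carhsp1, a small cold shock protein gene, gave -0.14 (SE 0.24). Both had overlapping libraries.

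Across all genes, 2 passed an adjusted p of 0.05 in the uninjured comparison, 0.0104% of the 19218 tested by edgeR. They were Hist4h4, higher in knockout, and Klrb1-ps1, lower in knockout, 0.0052% of the genes in each direction. Both lie on chromosome 6, within 20 Mb of Ybx3. At an unadjusted p under 0.05 there were 1030 genes (5.36%), of which 565 were higher (2.94%) and 465 lower (2.42%). DESeq2 called 72 genes (52 higher, 20 lower), and limma-voom called 2. The edgeR count was 0 without wild-type control replicate 2, 1 without wild-type control replicate 1 or 3 or knockout control replicate 2 or 3, 4 and 5 without wild-type IRI replicates 2 and 3, and 129 without knockout control replicate 1. Of those 129 genes, 110 were higher and 19 lower in the remaining knockouts, which were the libraries with high Y-linked RNA.

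Hist4h4 encodes a histone H4 protein, a core component of the nucleosome, and lies at 136801553 to 136804415 on the minus strand of chromosome 6, 5.42 Mb from the Ybx3 start. It stood at 8.22, 7.04 and 6.32 CPM in the wild types and at 17.1, 18.9 and 20.4 CPM in the knockouts. Every knockout library was at least 2-fold above the wild-type mean, knockout 1 included. The log2 fold change was 1.38 (SE 0.12, adjusted p = 0.0035, edgeR). After IRI the wild-type libraries lay at 5.81, 5.91 and 5.79 CPM and the knockout libraries at 14.4, 14.0 and 14.3 CPM, a log2 fold change of 1.29 (adjusted p = 0.00719, edgeR). The difference between the 2 genotype contrasts was -0.10 in log2 (adjusted p = 0.837, edgeR interaction test). Histone H4 genes encode near-identical proteins and can share reads, so the assignment of reads to Hist4h4 is uncertain. The edgeR call was lost without wild-type control replicate 2 (adjusted p = 0.0653), with the 6 uninjured libraries and the replicate number as a block (0.111), with these libraries and the Y-linked covariate (0.0517), and with knockout 1 alone against wild type (0.246).

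Klrb1-ps1 is a transcribed pseudogene of the natural killer cell receptor family, at 129116518 to 129129446 on the plus strand of chromosome 6. Its level was 0.589, 0.591 and 0.713 CPM in wild type and 0.0153, 0.0153 and 0.0316 CPM in knockout. The wild-type libraries together held 101 reads and the knockout libraries 4. The scaled ratio of wild type to knockout was 30.5, with an exact 95% interval of 11.5 to 114.0 that covers counting error only. The adjusted p was 0.0125 (edgeR). It was above 0.05 without any 1 of the 3 wild-type controls (0.0672 to 0.0906), without knockout control replicate 2 (0.207) or 3 (0.103), with the Y-linked covariate (0.165, or 0.056 with the 6 uninjured libraries), with these 6 and the replicate block (0.0694), and with knockout 1 alone (0.857). The groups also did not overlap after IRI, where the wild types held 0.142, 0.41 and 0.213 CPM and the knockouts 0.0308, 0.0741 and 0.0495 CPM.

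**Figure D1:**
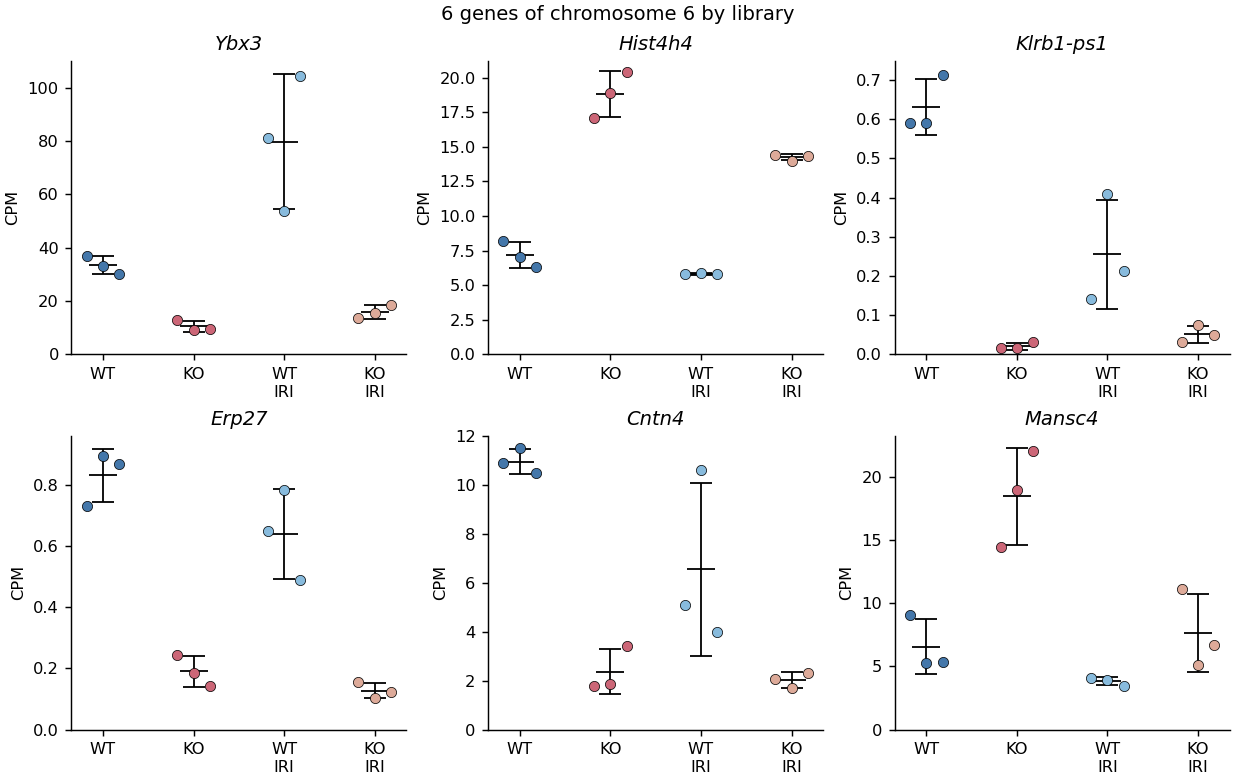
Levels in CPM (y axis, from 0) of 6 genes of chromosome 6 in the 12 libraries. Points are libraries, horizontal bars are group means and whiskers are SD (n = 3). Wild-type (WT) and knockout (KO) libraries do not overlap in any of the 6 genes, uninjured or after IRI.

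The promoter letters of Ybx3 and of Hist4h4, the deleted gene and the gene called higher, are shown as the 250 bases before the RefSeq start (GRCm38.p6, the assembly of mm10), 5′ to 3′ on the minus strand. The region is chr6:131388451-131388700 for Ybx3 and chr6:136804432-136804681 for Hist4h4, which RefSeq names H4f16.
Ybx3: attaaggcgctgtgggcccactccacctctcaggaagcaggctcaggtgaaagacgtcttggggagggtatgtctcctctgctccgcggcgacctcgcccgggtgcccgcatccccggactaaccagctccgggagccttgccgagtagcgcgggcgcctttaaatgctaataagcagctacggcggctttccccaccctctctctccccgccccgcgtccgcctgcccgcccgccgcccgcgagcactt
Hist4h4: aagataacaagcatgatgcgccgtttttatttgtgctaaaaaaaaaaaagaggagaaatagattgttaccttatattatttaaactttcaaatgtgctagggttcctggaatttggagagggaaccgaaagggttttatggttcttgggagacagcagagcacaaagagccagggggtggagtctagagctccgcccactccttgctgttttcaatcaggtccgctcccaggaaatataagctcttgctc
Neither window held CCAAT on either strand, which 33.8% of 32851 RefSeq promoter windows of this length held, nor GATTGG on either strand (14.6%), nor TATAAA on the same strand (7.59%). Nothing is in capitals because none of the 3 motifs was found.

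Since both calls lay near Ybx3, all tested genes were counted by their distance from it. The wild-type and knockout libraries did not overlap for 3161 genes, 16.4% of those tested (6.34% higher and 10.1% lower). Within 5 Mb of the Ybx3 start, with Ybx3 left out, this held for 36.8% of 87 genes (17 higher, 15 lower). It held for 22.1% of 289 genes between 5 and 20 Mb, 17.4% of 609 genes on the rest of chromosome 6, and 16.2% of 18232 genes on the other chromosomes. The share was thus largest nearest to Ybx3, with genes in both directions, and no test was made of it. Genes that did not overlap in the same direction uninjured and after IRI, where the libraries are others, made up 1.3% of all genes, 9.2% of those within 5 Mb, 4.5% of those between 5 and 20 Mb, and 1.19% of those on other chromosomes. The labels do not give the genetic background of either genotype, so an effect of the deletion and a difference in strain between the chromosome segments around Ybx3 cannot be told apart here.

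**Figure D2:**
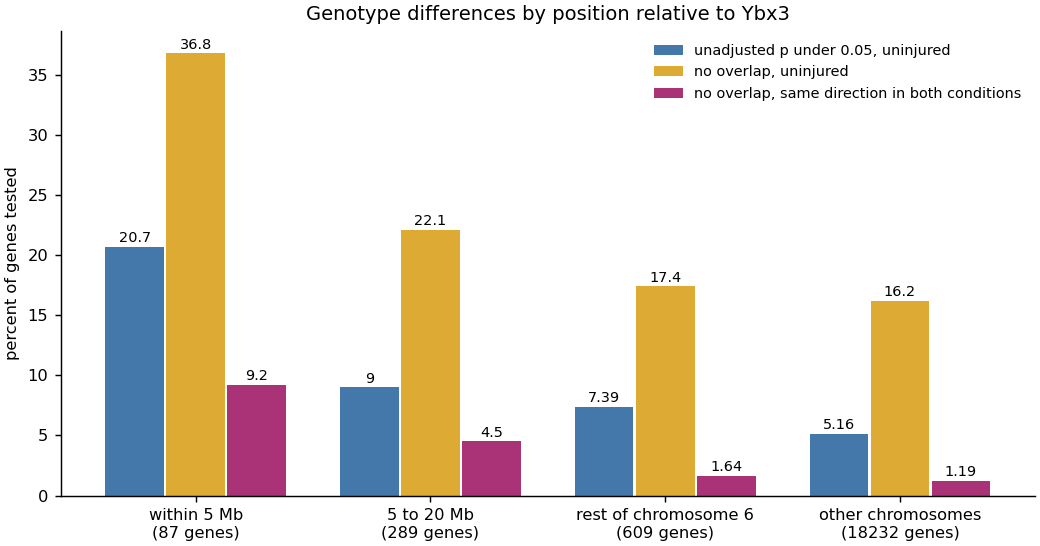
Percent of genes tested (y axis, from 0) by position relative to the Ybx3 start, which is itself left out. Bars give genes at an unadjusted p under 0.05 (edgeR), genes whose wild-type and knockout libraries did not overlap uninjured, and genes apart in the same direction in both conditions. The last share is 9.2% within 5 Mb and 1.19% on other chromosomes.

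Some of these neighbours, chosen after their values were seen, belong to the natural killer gene complex, a cluster of lectin-like receptor genes that natural killer cells and other leukocytes use to recognise target cells. Their levels were low and their differences went in both directions. Klrb1b, which encodes an inhibitory receptor, was at 0.244, 0.186 and 0.0771 CPM in wild type and at 0.0307, 0.0614 and 0.0158 CPM in knockout. Klrc1, which encodes the receptor NKG2A, had a log2 fold change of -1.73 and Klri1 one of -1.65, while Clec2j had 1.48 and Klrb1 2.86. Clec1b, which encodes the platelet receptor CLEC-2, was at 0.569, 0.642 and 0.829 CPM in wild type and 1.59, 1.12 and 0.965 CPM in knockout. These 6 genes had unadjusted p between 0.00201 and 0.0167, none passed the adjusted threshold in edgeR (adjusted p from 0.624 to 0.8), and in each the 3 knockouts lay on 1 side of the 3 wild types. The 18 lymphocyte and natural killer markers had a median log2 fold change of -0.30 over the 12 tested and no call, with 4 lower without overlap (10.1% of all genes) and none higher. Related receptor genes can share reads, so the split among them is uncertain.

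On the other side of Ybx3, Erp27, which encodes a chaperone-like protein of the endoplasmic reticulum, was at 0.731, 0.895 and 0.867 CPM in wild type and at 0.245, 0.184 and 0.142 CPM in knockout (log2 fold change -2.11, SE 0.29, adjusted p = 0.0784, edgeR). All 3 knockouts lay below all 3 wild types, and after IRI the difference was -2.31 (adjusted p = 0.0728). Its neighbour Pde6h, a phosphodiesterase subunit gene chosen after its value was seen, had a log2 fold change of -2.04 (adjusted p = 0.566, edgeR). Mansc4 was at 9.04, 5.25 and 5.36 CPM in wild type and at 14.4, 18.9 and 22 CPM in knockout (1.49, SE 0.30, adjusted p = 0.494, edgeR). Farther off on the same chromosome, Cntn4, which encodes the neural adhesion molecule contactin 4, stood at 10.9, 11.5 and 10.5 CPM in wild type and at 1.78, 1.87 and 3.42 CPM in knockout. Its log2 fold change was -2.22 (SE 0.36, adjusted p = 0.277, edgeR), and -1.70 after IRI (adjusted p = 0.422). Erp27 and Cntn4 passed in DESeq2 (adjusted p = 4.19e-05 and 4.77e-06) and in an edgeR test, added after the data were seen, of the mean genotype contrast over uninjured and IRI kidneys. That test called 5 genes in all, namely Hist4h4, Ybx3, Erp27, Klrb1-ps1 and Cntn4, every one of them on chromosome 6. Adjusted for Y-linked RNA, also after the data were seen, the mean contrast called 9 genes, not all on chromosome 6. It kept Hist4h4, Ybx3, Erp27 and Klrb1-ps1 but not Cntn4 (adjusted p = 0.0889, edgeR). The others were Serpina1b and Serpina1c on chromosome 12, BB557941 on chromosome 2, Gm21887 on X and Gm47283, annotated to Y.

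**Figure D3:**
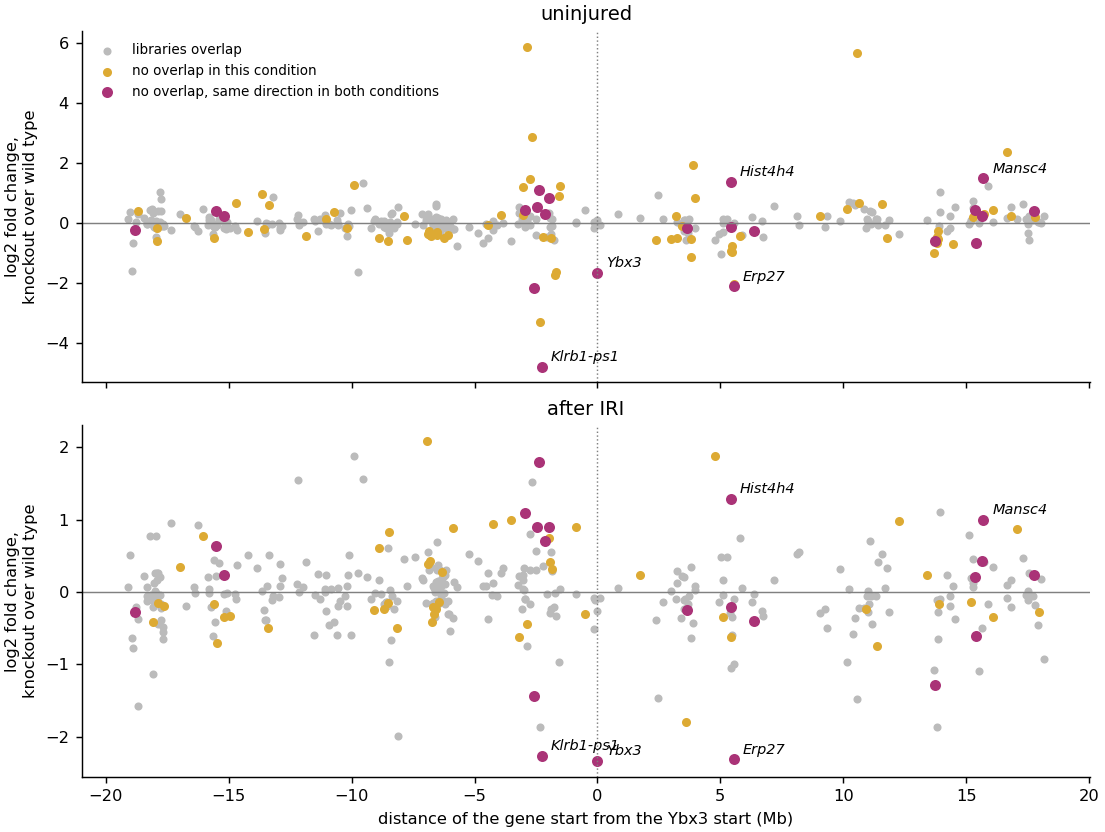
Log2 fold change of knockout over wild type (y axis) against the distance of a gene's start from the Ybx3 start in Mb (x axis), for the tested genes within 20 Mb, uninjured (top) and after IRI (bottom). Colour gives whether wild-type and knockout libraries overlap. Genes apart in both conditions lie on both sides of 0, with Klrb1-ps1 and Erp27 far below it and Hist4h4 above it.

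Of the 20 genes with the smallest p, the 4 alpha-1-antitrypsin genes Serpina1a, Serpina1b, Serpina1c and Serpina1e formed a group on chromosome 12. They encode paralogous serine protease inhibitors, made mainly by the liver and also by other epithelia. Serpina1a was at 5.30, 5.47 and 5.49 CPM in wild type and at 12, 60.8 and 56.0 CPM in knockout. Serpina1b was at 3.17, 3.34 and 3.20 CPM in wild type and at 8.48, 34.7 and 33.4 CPM in knockout. In all 4 genes knockout 1 lay above the wild types, and knockouts 2 and 3 lay far above knockout 1. The fitted log2 fold changes were 2.98, 2.98, 2.94 and 2.90 for Serpina1a, Serpina1b, Serpina1c and Serpina1e (adjusted p from 0.277 to 0.29, edgeR). After IRI they were between -0.42 and -0.31, and the interaction was between -3.35 and -3.29 in log2 (adjusted p = 0.666 in edgeR; 33 genes passed the interaction test in DESeq2, these 4 among them; 7.02% of all genes had an unadjusted interaction p under 0.05 in edgeR). Knockouts 2 and 3 were also the libraries with high Y-linked RNA. That level varied among the IRI libraries too. With it as a covariate, 0 genes passed the interaction test in edgeR, as in the main fit. An unadjusted interaction p under 0.05 was then found for 377 genes, against 1350 in the main fit. The interaction of these 4 genes in that fit is not given here. In the uninjured comparison with the same covariate the log2 fold change of Serpina1b was 1.62 in place of 2.98, with an adjusted p of 0.0336 in edgeR. The list of 14 liver genes, which holds Serpina1a and Serpina1c, had a median log2 fold change of 0.54 over the 10 tested and no call in the main edgeR fit. In it 3 were higher without overlap (6.34% of all genes), namely these 2 and Apoa1. DESeq2 called all 4 Serpina1 genes in the uninjured comparison. The summed level of the list was 54.9 to 71.9 CPM in wild type and 87.6, 164.1 and 204.7 CPM in knockout. This sum is not separate from the values above, since it includes Serpina1a and Serpina1c. In the knockouts Serpina1c was at 8.36, 38.0 and 35.5 CPM. Ttr, the transthyretin gene, chosen after its values were seen, was at 33.6, 26.6 and 24.0 CPM in wild type and at 25.1, 39.9 and 87.3 CPM in knockout, with overlap. The part of liver RNA in these differences was not tested.

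The sequences before the starts of these paralogs are shown because the genes were high in the same libraries and because reads of such similar copies are hard to assign; Serpina1d, the fifth copy, had 0 counts in all 12 libraries. The lines give 115 bases on the minus strand of chromosome 12 from RefSeq (GRCm38.p6), 5′ to 3′, with the run of 55 bases that all 5 share in capitals.
Serpina1a: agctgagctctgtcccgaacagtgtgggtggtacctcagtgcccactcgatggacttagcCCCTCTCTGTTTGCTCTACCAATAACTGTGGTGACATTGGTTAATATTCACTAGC
Serpina1b: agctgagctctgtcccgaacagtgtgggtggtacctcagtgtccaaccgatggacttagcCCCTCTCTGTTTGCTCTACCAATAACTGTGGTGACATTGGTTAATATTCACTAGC
Serpina1c: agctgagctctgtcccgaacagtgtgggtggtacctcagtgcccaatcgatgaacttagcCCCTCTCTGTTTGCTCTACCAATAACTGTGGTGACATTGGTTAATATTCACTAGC
Serpina1d: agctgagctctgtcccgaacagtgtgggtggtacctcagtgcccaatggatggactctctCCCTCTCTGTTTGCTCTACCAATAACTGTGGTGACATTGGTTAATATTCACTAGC
Serpina1e: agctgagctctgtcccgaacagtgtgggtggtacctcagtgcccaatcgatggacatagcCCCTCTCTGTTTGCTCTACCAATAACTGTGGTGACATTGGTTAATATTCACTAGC
Against Serpina1a, the other 4 stretches were equal at 112 (Serpina1b), 113 (Serpina1c), 109 (Serpina1d) and 113 (Serpina1e) of 115 positions. The shared run holds CCAAT once on each strand, the second written as ATTGG. It starts between 55 and 117 bases before the annotated start. A motif match is a description of the letters only.

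The remaining genes of the 20 with the smallest p lay on several chromosomes, with Far2os2 on chromosome 6, 16.66 Mb from the Ybx3 start. Mrnip, which encodes a protein bound to the MRN DNA repair complex, was at 6.42, 6.69 and 6.19 CPM in wild type and at 11.6, 13.0 and 15.4 CPM in knockout (log2 fold change 1.05, SE 0.18, adjusted p = 0.277, edgeR). All 3 knockouts were above the wild types, but after IRI the fold change was 0.02. Nkain1, whose product interacts with the sodium pump, was at 21.3, 15.9 and 12 CPM against 7.01, 6.05 and 5.55 CPM (-1.40, SE 0.25, adjusted p = 0.277, edgeR), and at 0.02 after IRI. Tmprss6, the gene of the protease matriptase-2 that restrains hepcidin, was at 3.57, 5.03 and 5.17 CPM against 2.53, 1.90 and 2.01 CPM (-1.10, SE 0.20, adjusted p = 0.277, edgeR). Yars2, the mitochondrial tyrosyl-tRNA synthetase gene, was at 12.1, 10.5 and 9.18 CPM against 19.3, 21.3 and 21.1 CPM (0.95, SE 0.20, adjusted p = 0.566, edgeR). None of these 4 passed the adjusted threshold, and in all 4 the libraries overlapped after IRI. Col19a1 (1.73), Tgm7 (1.64), Mpped2 (0.70), Far2os2 (2.36), Gm38505 (5.01) and AI481877 (4.52) were higher in log2 and completed the 20, with adjusted p between 0.277 and 0.566 (edgeR). Since the strand setting of the counting is not known, reads of Far2os2 and of an overlapping gene on the other strand cannot be told apart. In Gm38505 and AI481877, knockouts 2 and 3 stood above 2 CPM and knockout 1 at 0.215 and 0.23 CPM.

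How the 3 knockout libraries shared their differences was counted over 15778 genes with at least 1 CPM in some uninjured library, taking a log2 difference from the wild-type mean beyond 1 in either direction. All 3 knockouts were that far above wild type for 12 genes and below for 19. Knockouts 2 and 3 without knockout 1 were above for 201 genes and below for 144. Knockout 1 by itself was above for 206 genes and below for 19. Pairs that joined knockout 1 with knockout 2 or with knockout 3 were far fewer, 2 and 11 genes above and 4 and 7 below. Among the 31 genes beyond the difference in all 3, and chosen after their values were seen, Spidr, a gene of homologous recombination repair, was at 54.5, 52.6 and 60.8 CPM in wild type and at 200.4, 156.6 and 159.6 CPM in knockout. Pkp2, which encodes the desmosomal protein plakophilin 2, was at 35.8, 39.7 and 39.9 CPM against 85.9, 85.8 and 85.3 CPM. Both were called in the edgeR fit of the 6 uninjured libraries alone and not in the fit of all 12. In both the libraries overlapped after IRI, with log2 fold changes of 0.97 for Spidr and -0.02 for Pkp2. Hdc, which encodes the enzyme that makes histamine, was at 41.3, 30.8 and 29.1 CPM against 12.8, 10.6 and 13.5 CPM, below wild type in all 3 knockouts, and it was also lower without overlap after IRI. Igf2, the imprinted growth factor gene, was at 105.5, 91.5 and 128.6 CPM against 52.4, 1.20 and 1.28 CPM, so that knockout 1 held far more of it than knockouts 2 and 3.

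Genes with known higher expression in male mouse kidney were high in the libraries with Y-linked RNA. Of 18 such genes, 15 were beyond the log2 difference of 1 above wild type in knockouts 2 and 3 without knockout 1, and 1 in all 3. Slc7a13, an aspartate and glutamate transporter gene of the late proximal tubule, was at 1.99, 1.22 and 1.31 CPM in wild type and at 0.583, 498.8 and 393.1 CPM in knockout. Slco1a1, an organic anion transporter gene, was at 2.21, 1.88 and 2.0 CPM against 3.45, 156.3 and 154.8 CPM. Cyp7b1, an oxysterol hydroxylase gene, was at 24.3, 22.1 and 20.4 CPM against 25.6, 256.5 and 235.0 CPM. Knockout 1 was close to the wild types for Slco1a1 and Cyp7b1 and below them for Slc7a13, 1 of 3 genes of the list that were beyond the difference below wild type in knockout 1 by itself. None of the 3 named genes passed in edgeR (adjusted p = 0.624, 0.624 and 0.606). The median log2 difference of the list was -0.22 in knockout 1, 3.47 in knockout 2 and 3.45 in knockout 3. Female-biased genes went the other way in part: of 13, 6 were beyond the difference below wild type in knockouts 2 and 3 without knockout 1 and 2 were above. Below wild type in all 3 knockouts was 1 gene, Akr1c18, which encodes a progesterone-metabolising enzyme. It was at 83.7, 20.3 and 17.6 CPM against 9.81, 4.68 and 3.72 CPM. Tmigd1, with the smallest p of the list, was instead higher in knockouts 2 and 3. It was at 32.4, 29.7 and 24.9 CPM against 24.0, 84.6 and 88.8 CPM (1.18 in log2, adjusted p = 0.691, edgeR). Kdm5c and Eif2s3x, X-linked genes that escape X inactivation, had log2 fold changes of -0.37 and -0.43, from 133.6 to 139.8 CPM in wild type to 127.9, 94.0 and 94.0 CPM for Kdm5c. Genotype and Y-linked level are joined in 2 of the 3 knockouts, and their parts cannot be told apart there.

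**Figure D4:**
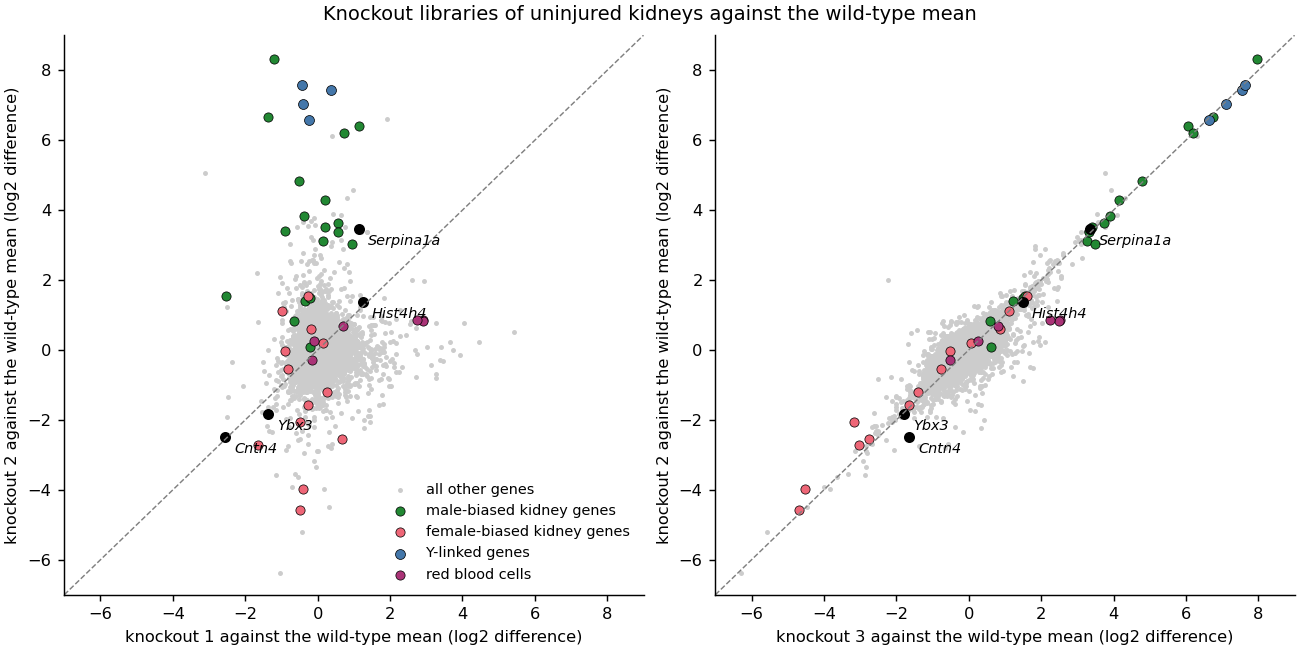
Log2 difference from the wild-type mean (CPM with 0.1 added) of knockout 2 against knockout 1 (left) and against knockout 3 (right), for 15778 genes. Dashed lines mark equal differences. The Y-linked genes and most male-biased genes lie high for knockouts 2 and 3 and not for knockout 1, while Ybx3, Hist4h4 and Cntn4 lie on the same side of 0 in all 3.

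Lists of genes for cell types and pathways were then described by their counts and medians, beside a median log2 fold change of -0.009 over all genes tested. No list held a called gene in the uninjured comparison of the main edgeR fit. The 72 genes called by DESeq2 included 7 of the male-biased list and the 4 Y-linked genes. The 129 genes called by edgeR without knockout control replicate 1 included 8 of the male-biased list. The mitochondrial lists, which bear on a function named in the study's title, sat near 0: the median was -0.03 for 34 genes of complex I, -0.05 for 39 genes of complexes II to V, 0.04 for 23 genes of the TCA cycle, 0.06 for 24 genes of fatty acid oxidation and 0.00 for 24 genes of mitochondrial biogenesis and dynamics. For the complex I list the fold changes ranged from -0.15 to 0.16. By library, the complex I median was -0.18, 0.04 and 0.06 in knockouts 1, 2 and 3. That of complexes II to V was -0.21, 0.02 and 0.06. Ppargc1b, which encodes a coactivator of mitochondrial genes, was at 154.9, 169.1 and 161.1 CPM in wild type and at 232.1, 208.9 and 207.7 CPM in knockout. The groups did not overlap, but the log2 fold change of 0.42 (SE 0.20) had an adjusted p of 0.943 in edgeR. In its list of biogenesis and dynamics genes it was the 1 gene higher without overlap, and 4 were lower (6.34% and 10.1% of all genes). Bnip3, with a log2 fold change of -0.2, was among the lower ones. Cycs, the cytochrome c gene, was at 95.1, 78.9 and 76.5 CPM against 77.3, 134.4 and 129.4 CPM, above wild type in knockouts 2 and 3 and within its range in knockout 1.

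The 29 tested genes of the cytosolic ribosome all had negative fold changes, with a median of -0.16 and a range from -0.29 to -0.04. In 9 of them the knockouts lay below all wild types, against 10.1% of all genes. The medians were alike in the 3 knockouts, -0.18, -0.16 and -0.16. Rpl3 was at 193.3, 162.2 and 148.4 CPM in wild type and at 142.9, 137.3 and 139.0 CPM in knockout (-0.27, SE 0.11, adjusted p = 0.892, edgeR). Wild type 1 was the highest of the 6 libraries in the summed level of the list, 3835.3 CPM, and wild type 3 at 3028.5 CPM lay within the knockout range of 3004.5 to 3073.3 CPM. Of 29 translation factor genes, 2 had an unadjusted p under 0.05, both lower (2.42% of all genes), and the median was -0.04.

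Along the nephron, the lists downstream of the proximal tubule had negative medians in the fit, though not in every library. For 11 tested markers of collecting duct principal cells the median was -0.13, with 3 positive, and it was 0.24 in knockout 1, -0.35 in knockout 2 and -0.53 in knockout 3. All 11 tested intercalated cell markers, genes of the acid- and base-secreting cells of the collecting duct, were below 0, with a median of -0.44, and 7 of them were lower without overlap, against 10.1% of all genes. Foxi1, the transcription factor gene of these cells, was at 14.8, 22 and 20.5 CPM in wild type and at 14.0, 13.3 and 12.4 CPM in knockout (-0.53, SE 0.23, adjusted p = 0.892, edgeR). Of 18 thick ascending limb and distal tubule markers, 7 were lower without overlap and 1 was higher (10.1% and 6.34% of all genes), and the median was -0.39. Umod, which encodes uromodulin, the main protein of normal urine, was at 2309.1, 1959.1 and 1884.3 CPM against 1532.8, 1414.9 and 1239.1 CPM (-0.56, SE 0.23, adjusted p = 0.891, edgeR). Every knockout was below every wild type for Umod and for Klk1, the kidney kallikrein gene (-0.64, SE 0.30, adjusted p = 0.935, edgeR). The 12 podocyte markers had a median of -0.32, the 30 proximal tubule markers 0.04 and the 15 endothelial markers 0.10. In these bulk libraries fewer cells of a type and less RNA per cell cannot be told apart. After IRI, the medians for intercalated, thick ascending limb and podocyte markers were 0.35, 0.51 and 0.31, in libraries that also differed in Y-linked RNA.

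Of 18 macrophage and monocyte markers, 7 were lower without overlap and none was higher (10.1% and 6.34% of all genes), with a median of -0.25. C1qc, which encodes a chain of complement C1q made by resident macrophages, was at 4.99, 4.88 and 5.96 CPM in wild type and at 3.25, 3.81 and 3.46 CPM in knockout (-0.59, SE 0.18, adjusted p = 0.673, edgeR). Cx3cr1, the fractalkine receptor gene, was at 8.28, 9.19 and 9.33 CPM against 6.65, 6.71 and 5.4 CPM (-0.52, SE 0.15, adjusted p = 0.662, edgeR). Both were lower in all 3 knockouts, knockout 1 included. The summed level of the list was 197.6 to 210.1 CPM in wild type and 162.3, 201.9 and 149.3 CPM in knockout, so knockout 2 overlapped the wild types. Red blood cell RNA went the other way in part: Hbb-bt, a beta globin gene, was at 6.4, 2.06 and 7.0 CPM against 31.0, 8.27 and 22 CPM (1.99, SE 0.82, adjusted p = 0.881, edgeR). The summed level of the red blood cell list was 96.3, 75.5 and 94.0 CPM in wild type and 198.2, 99.3 and 161.7 CPM in knockout; its part in other differences was not tested.

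The injured tubule list summed to 987.8 to 1426.5 CPM in these uninjured kidneys, against 3793.7 to 11354.6 CPM after IRI. Spp1, the osteopontin gene, was at 616.5, 557.9 and 473.0 CPM in wild type and at 413.5, 250.8 and 234.3 CPM in knockout (-0.87, SE 0.24, adjusted p = 0.624, edgeR). Clu, which encodes the chaperone clusterin, was at 160.9, 185.9 and 143.6 CPM against 109.4, 96.6 and 92.9 CPM (-0.71, SE 0.20, adjusted p = 0.624, edgeR). Both were below wild type in every knockout without passing the adjusted threshold, and the injured tubule list as a whole had a median of -0.10 over 26 genes. Clu also did not overlap after IRI, where its log2 fold change was -0.82 (adjusted p = 0.422).

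Of 16 tested circadian clock genes, 3 were higher and 7 lower without overlap (6.34% and 10.1% of all genes). Their log2 fold changes ranged from -1.47 to 1.45, with a median of -0.2. Per2, a core repressor of the circadian clock, was at 60.9, 63.1 and 87.1 CPM in wild type and at 39.6, 47.7 and 40.3 CPM in knockout (-0.73, SE 0.17, adjusted p = 0.606, edgeR). Dbp, an output gene of the clock that is distinct from DbpA, was at 53.3, 37.5 and 45.0 CPM against 20.1, 33.5 and 21.8 CPM (-0.85, SE 0.23, adjusted p = 0.624, edgeR). In both genes all knockouts were below all wild types, and after IRI the fold changes were 0.31 and 0.60. Npas2, a clock gene chosen after its values were seen, went the other way. It was at 8.49, 16.8 and 12.4 CPM in wild type and at 41.4, 23.8 and 38.0 CPM in knockout. Genes of the glucocorticoid response differed among the knockouts, with a median log2 difference of -0.09 in knockout 1, -0.87 in knockout 2 and -1.0 in knockout 3. Zbtb16, a glucocorticoid-induced gene, was at 90.6, 150.3 and 526.9 CPM in wild type and at 186.9, 18.8 and 27.1 CPM in knockout. In this spread wild type 3 and knockouts 2 and 3 were the extremes.

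Genes reported elsewhere as targets or partners of DbpA gave no call in the main edgeR fit. Of 15 tested, the median log2 fold change was -0.08 and the range -0.50 to 0.18. Ccnd1, the cyclin D1 gene, was at 163.3, 112.9 and 100.7 CPM in wild type and at 80.0, 91.1 and 96.3 CPM in knockout (-0.50, SE 0.32, adjusted p = 0.999, edgeR). Slc3a2, which encodes the heavy chain of amino acid exchangers, was at 156.3, 141.8 and 114.8 CPM against 119.7, 103.4 and 96.9 CPM (-0.37, SE 0.20, adjusted p = 0.999, edgeR). Ccnd1 was below wild type in all 3 knockouts, while for Slc3a2 knockout 1 lay within the wild-type range. Of 23 tight junction genes, 3 were higher and 5 lower without overlap (6.34% and 10.1% of all genes), with a median of -0.16. Among them, Cldn7, a claudin gene, was at 18, 14.4 and 14.9 CPM against 12.3, 8.38 and 7.55 CPM (-0.75, SE 0.23, adjusted p = 0.662, edgeR).

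**Figure D5:**
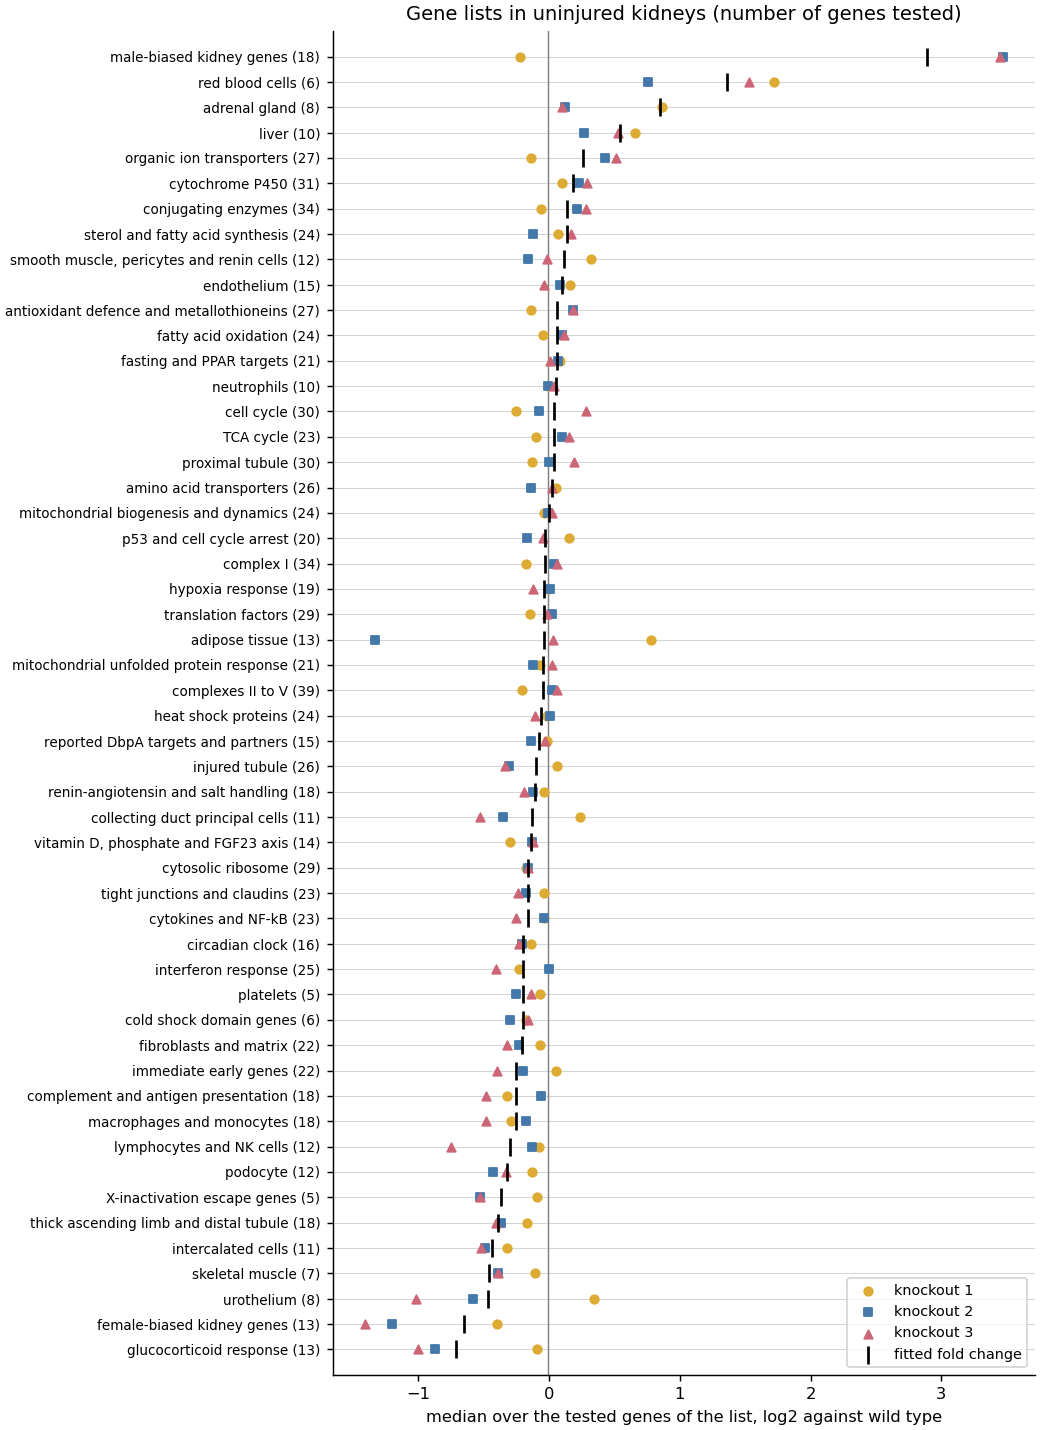
Median over the tested genes of each list (y axis, number tested in brackets) of the log2 difference from wild type (x axis) for each knockout library and of the fitted fold change. The grey line is the median over all genes, -0.009. The Y-linked list is not drawn. Most medians lie near the line, and the male-biased list is far to the right in knockouts 2 and 3 and not in knockout 1.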

How the data were processed

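RNA-seq read counts per gene of 12 mouse kidney libraries were used, 3 in each of 4 groups, as the authors deposited them in a table of raw counts for 42748 genes. Per the submitters' processing notes, reads were aligned with STAR to mm10, and per the labels' protocols the kit keeps strand. The STAR version, the counting tool and the strand setting of the counting were not given in the sources used here. IDs were matched to GENCODE M21 for 42548 genes.

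Genes were filtered with edgeR's filterByExpr (minimum count 10, minimum total 15), scaled by TMM and fitted with edgeR 4.0.16 (R 4.3.3) in a quasi-likelihood model of all 4 groups, with Benjamini-Hochberg adjustment over 19218 genes and a threshold of 0.05. CPM values use TMM-scaled library sizes. DESeq2 1.42.0, limma 3.58.1 (voom), other scalings and filters, a replicate block, a Y-linked covariate and left-out libraries were alternatives. Total counts were 39074224 to 67948710 per library. Counting intervals cover counting error only, since PCR copies are not independent molecules. Exact permutation tests of 3 against 3 libraries cannot go below 0.1 and were not used. The procedure was tested on simulated data.

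Named genes are the cold shock and Y-linked genes, all called genes, the 20 with the smallest p, and up to 2 genes of smallest p per list. Exceptions are marked in the text, and 1 gene of the rule is not reported here. The comparison, the 53 gene lists and the rules were chosen with earlier results of these data known.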

Additional observations from a re-analysis of the deposited data

How the results depend on the processing

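The count of genes called in uninjured kidneys was 2 with RLE or unscaled library sizes, no filter on low counts, limma-voom, the replicate block or a fold threshold of 1.5. With the Y-linked covariate the count was also 2, but the genes were Serpina1b and Hist4h4, without Klrb1-ps1. It was 1 with a filter of 1 CPM in 3 libraries or protein-coding genes only, 72 with DESeq2, 5 with the 6 uninjured libraries only, 3 with these and the replicate block, and 0 with knockout control replicate 1 alone against wild type, where 521 genes had an unadjusted p under 0.05. Added after the data were seen, it was 10 with the 6 libraries and the Y-linked covariate, 5 for the mean of both genotype contrasts and 9 for that mean with the covariate. Leaving out 1 library at a time gave 0 to 129 genes uninjured, 0 to 876 after IRI and 0 to 25 for the interaction. After IRI the count was 117 with DESeq2, 0 with the replicate block and 4 with the covariate; for the interaction DESeq2 gave 33. Ybx3 kept its direction in every setting run, from -1.83 to -1.34 in log2 for the uninjured contrast alone. It passed at -1.65 with DESeq2 and with the 6 libraries only, at -1.67 with these and the block, at -1.37 with these and the covariate, and at -1.99 and -1.97 for the mean contrasts. Without 1 library it ranged from -1.83 to -1.58. Over 71 named genes, 1684 comparisons with an alternative kept direction and side of the threshold, 11 lost and 52 gained the call, and 11 reversed. Only Hist4h4 and Klrb1-ps1 were called in the main fit and could lose a call, so the 11 losses were all theirs. The other genes counted as kept when they stayed uncalled in the same direction. Against knockout 1 alone the reversed genes were Ybx1 (-0.14), Kdm5d (-0.31), Eif2s3y (-1.70), Uty (-0.45), Tmigd1 (-0.24), Slc22a6 (-0.49), Slc27a2 (-0.01), Ndufb3 (-0.10), Cycs (-0.08) and Slc7a13 (-1.33). Ybx2 was 0.05 with the covariate. For these the cause was not tested. Libraries with the same replicate number did not deviate together (correlations -0.117 to 0.0732 uninjured and -0.417 to -0.0887 after IRI), so the numbers were not read as pairs; with the block Hist4h4 and Klrb1-ps1 were called in the fit of 12 libraries and not in that of 6, which called Hba-a2, Hba-a1 and Ybx3. Depth limits the genes under about 1 CPM, such as Klrb1-ps1 and the receptor genes beside it.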

Other observations

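Metabolic enzymes outside the comparisons above showed the same division among the knockout libraries. Idi1, an enzyme gene of the mevalonate pathway, was at 21.6, 22.2 and 21.7 CPM in wild type and at 23.2, 98.6 and 100.6 CPM in knockout. Me1, the cytosolic malic enzyme gene, was at 185.1, 151.3 and 147.9 CPM against 172.5, 348.2 and 338.0 CPM. Ugt8a, a ceramide galactosyltransferase gene, was at 14.0, 9.07 and 18.3 CPM against 20.7, 118.6 and 110.1 CPM. In all 3 genes knockout 1 lay in or close to the wild-type range, and none passed in edgeR with all 12 libraries (adjusted p = 0.606, 0.817 and 0.624). Idi1 had the smallest p of the 129 genes called without knockout control replicate 1. Cyp4f14, which encodes an enzyme of leukotriene breakdown, was instead below wild type in all 3 knockouts, at 4.37, 4.21 and 3.66 CPM against 2.05, 1.26 and 1.44 CPM (log2 fold change -1.36, SE 0.36, adjusted p = 0.624, edgeR).

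Knockout 1 held transcripts that the other 5 libraries held less of, named after their values were seen. Adgrf1, an adhesion receptor gene, was at 14.7 CPM there and at 0.87 to 3.94 CPM in the others. Hk2, the hexokinase 2 gene, was at 24.9 CPM there and at 2.45 to 7.43 CPM in the others. Myh11, the smooth muscle myosin gene, was at 67.9 CPM there and at 27.5 to 45.6 CPM in the others. Adipocyte markers also varied within both genotypes: Adipoq, the adiponectin gene, was at 10.7, 1.25 and 5.19 CPM in wild type and at 11.2, 1.20 and 4.24 CPM in knockout. Ndrg1, a stress-responsive gene, was at 615.4, 807.6 and 639.6 CPM in wild type and at 1437.4, 821.7 and 1263.8 CPM in knockout, higher in every knockout without passing the test (adjusted p = 0.93, edgeR).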
